A study of Mus musculus with 4 samples.

Results

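Oxygen-glucose deprivation (OGD) was compared with normal culture in HT22 cells infected with a virus that the labels describe as an AK046375 knockdown (AK046375 is a long noncoding RNA). The comparison took the 2 libraries whose titles name that knockdown, of 4 libraries in the series, and kept the genes that averaged at least 1 FPKM (fragments per kilobase of transcript, scaled to library size) over the pair. That left 12344 of 47069 listed genes, and each was described by its log2 ratio of FPKM + 1, OGD over normal culture. HT22 is an immortalised line cloned from a mouse hippocampal culture and is used as a model of neuronal injury. The strain is given as C57BL/6. The 4 groups, of 1 library each, were OGD with the knockdown-labelled adenovirus, normal culture with the knockdown-labelled adenovirus, OGD with a control adenovirus and normal culture with a control adenovirus. All cells met their virus 2 h after seeding, and OGD meant 6 h in medium free of glucose under nitrogen. The control-virus pair shares no library with the pair described here and is used only for comparison.

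Cells deprived of oxygen stabilise the transcription factor subunit HIF-1α, which switches on genes for glucose uptake, glycolysis and angiogenesis. Loss of glucose and of ATP lets misfolded proteins collect in the cytosol and in the endoplasmic reticulum (ER), where heat shock factor 1 and the unfolded protein response answer, while amino acid shortage and other stresses meet in the integrated stress response through eIF2α and ATF4. Oxidants and free zinc released in ischaemia act on NRF2 and on the metal-responsive factor MTF-1, which drive heme oxygenase, glutathione and metallothionein genes, and hippocampal neurons are among the cells most easily killed by ischaemia.

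With 1 library a group there was no spread between replicates, so no test was made and no p-value is given. Genes are called higher or lower at 2-fold or more on the log2 scale. Brackets hold exact 95% intervals of an FPKM fold, which cover counting error only and compare these libraries, not the conditions. In bulk RNA, fewer cells of a kind and less RNA of a gene per cell cannot be told apart. FPKM values are shares of a library, so a gene can stand higher because others stand lower.

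The libraries held 23327743 expected counts in OGD and 23340914 in normal culture with the knockdown-labelled virus, and 27539845 and 26002246 with the control virus. FPKM over all genes summed to 911908 in OGD and 1305760 in normal culture with the knockdown-labelled virus. With the control virus the sums were 1124110 in OGD and 1041350 in normal culture. Summed levels of lists below are to be read against these totals. The targeted RNA could not be checked, because 0 identifiers in the files or the reference matched AK046375 by name. The library labels speak of knockdown by adenovirus, whereas the series text speaks of overexpression by lentivirus, so the direction of the intervention is unchecked and the term knockdown-labelled is kept. Of 20 neuronal markers, 4 were measured in the pair, and Rbfox3, Dcx, Nefl, Nefm, Snap25, Gap43, Gad1 and Gria2 had no count in either of its libraries. Tubb3, the neuronal β-tubulin gene, was at 7.84 FPKM in OGD against 37.8 in normal culture with the knockdown-labelled virus and 7.17 FPKM in OGD against 40.6 in normal culture with the control virus. Of 13 fibroblast and mesenchymal markers 10 were measured, among them the collagen gene Col1a1 at 321 FPKM in OGD against 478 in normal culture. S100a4 was at 2592 FPKM in OGD against 6209 in normal culture and the smooth muscle actin gene Acta2 at 618 FPKM in OGD against 342 in normal culture. The marker RNAs of these libraries are therefore more those listed as mesenchymal and progenitor than those of mature neurons, although no reference sample was at hand. The astrocyte list had 2 measured members, the oligodendrocyte list 1, the microglia list 3 and the endothelial list 1, and Gfap, Aqp4, Olig2, Ptprc and Cdh5 stood at 0.09 FPKM or less in all 4 libraries. Other members of these lists were detected. Tmem119 was at 27.2 FPKM in OGD against 55.1 in normal culture and Cd68 at 12.97 FPKM in OGD against 14.3 in normal culture, both listed for microglia. Gja1, listed for astrocytes, was at 27.8 FPKM in OGD against 4.74 in normal culture, and Cnp, listed for oligodendrocytes, at 2.97 FPKM in OGD against 19.1 in normal culture.

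The genes whose responses carry the comparison are known for short control sequences near their start sites, so the RefSeq windows of 7 of them (GRCm38.p6, 250 bases before to 50 after the start, given 5′ to 3′ on the gene's strand) are shown with the matches in capitals. Motifs were searched on both strands. In Mt2 (chr8:94172368-94172667, plus strand) and Mt1 (chr8:94178839-94179138, plus strand), neighbouring genes of zinc-binding metallothioneins, the capitals mark the metal response element core TGCACNC or TGCGCNC. It occurs 4 times in the Mt2 window and 3 times in the Mt1 window, and at least once in 28.2% of 27025 genes with a window.
Mt2: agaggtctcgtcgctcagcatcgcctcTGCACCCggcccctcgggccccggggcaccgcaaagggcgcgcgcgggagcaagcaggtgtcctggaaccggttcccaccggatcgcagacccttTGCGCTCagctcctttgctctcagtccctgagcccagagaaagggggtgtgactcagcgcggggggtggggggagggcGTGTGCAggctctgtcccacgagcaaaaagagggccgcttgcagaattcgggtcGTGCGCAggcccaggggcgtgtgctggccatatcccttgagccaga
Mt1: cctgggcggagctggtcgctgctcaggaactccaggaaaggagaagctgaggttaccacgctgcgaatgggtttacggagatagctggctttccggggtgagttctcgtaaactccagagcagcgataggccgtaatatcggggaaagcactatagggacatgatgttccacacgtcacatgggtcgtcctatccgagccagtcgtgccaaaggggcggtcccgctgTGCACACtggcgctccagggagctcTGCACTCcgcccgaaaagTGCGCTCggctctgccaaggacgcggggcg
In Hspa1b (chr17:34959189-34959488, minus strand) and Hspa1a (chr17:34972107-34972406, minus strand), the pair of inducible HSP70 genes, the capitals mark a heat shock element core, GAANNTTC or TTCNNGAA, which is present in 17.0% of genes. The windows of this pair are equal at 296 of 300 positions, and the genes themselves are near-identical copies.
Hspa1b: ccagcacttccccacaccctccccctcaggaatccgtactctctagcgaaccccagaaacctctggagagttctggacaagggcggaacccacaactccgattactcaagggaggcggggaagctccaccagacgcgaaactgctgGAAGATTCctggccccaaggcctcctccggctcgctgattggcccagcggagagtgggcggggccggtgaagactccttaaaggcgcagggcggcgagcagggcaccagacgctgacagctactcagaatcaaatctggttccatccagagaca
Hspa1a: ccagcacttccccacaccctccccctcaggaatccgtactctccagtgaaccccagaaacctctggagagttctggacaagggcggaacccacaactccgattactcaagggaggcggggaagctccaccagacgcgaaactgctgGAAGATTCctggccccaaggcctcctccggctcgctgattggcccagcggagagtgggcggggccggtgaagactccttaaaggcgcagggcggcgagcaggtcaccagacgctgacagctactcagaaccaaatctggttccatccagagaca
In Nr4a1 (chr15:101266596-101266895, plus strand), an immediate early nuclear receptor gene, the capitals mark the heptamer TGCGTCA, a variant of the cyclic AMP response element that occurs here 4 times and at least once in 2.42% of genes.
Nr4a1: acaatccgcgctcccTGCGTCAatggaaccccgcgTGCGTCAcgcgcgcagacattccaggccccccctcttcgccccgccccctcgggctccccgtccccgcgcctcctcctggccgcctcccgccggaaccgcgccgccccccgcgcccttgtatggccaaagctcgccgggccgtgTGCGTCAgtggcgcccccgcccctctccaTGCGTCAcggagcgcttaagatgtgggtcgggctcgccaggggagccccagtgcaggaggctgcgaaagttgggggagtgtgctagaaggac
In Hspa5 (chr2:34771840-34772139, plus strand), which encodes the ER chaperone BiP, the capitals mark the ER stress element (CCAAT, 9 bases of any kind, then CCACG), which includes a CCAAT box and is found in 37 genes, 0.137% of those with a window.
Hspa5: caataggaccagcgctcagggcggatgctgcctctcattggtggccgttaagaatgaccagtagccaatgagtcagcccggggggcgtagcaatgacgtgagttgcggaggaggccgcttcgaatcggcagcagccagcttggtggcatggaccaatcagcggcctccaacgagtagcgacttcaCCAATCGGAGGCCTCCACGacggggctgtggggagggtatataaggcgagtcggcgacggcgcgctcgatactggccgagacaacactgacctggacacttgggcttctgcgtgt
In Txnip (chr3:96557707-96558006, plus strand), a glucose-induced gene, the capitals mark a carbohydrate response element (CACGAG 2 times with 5 bases of any kind between). This exact spelling is found in this 1 gene only among all windows searched. Other spellings of the element were not searched, so its frequency among genes is not given.
Txnip: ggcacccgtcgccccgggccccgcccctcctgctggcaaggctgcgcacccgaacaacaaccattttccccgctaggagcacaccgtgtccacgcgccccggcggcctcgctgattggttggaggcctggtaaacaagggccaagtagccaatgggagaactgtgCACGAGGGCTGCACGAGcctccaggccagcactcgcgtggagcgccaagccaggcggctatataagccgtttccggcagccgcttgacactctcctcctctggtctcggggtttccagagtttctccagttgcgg
These matches are descriptions of letters in a window and not evidence of binding.

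Differences between the 2 libraries were large and went both ways. Of 12344 genes, 4182 (33.9%) were at least 2-fold higher in OGD, 2578 (20.9%) were at least 2-fold lower and 5584 lay within 2-fold, so that 54.8% passed 2-fold either way. The median log2 ratio of all genes was 0.34. At 4-fold or more the counts were 1413 higher and 620 lower, at 8-fold or more 263 and 102, and at 16-fold or more 47 and 19. With the control virus 1434 of 12017 genes (11.9%) were higher and 3004 (25%) lower, together 36.9%, with a median of -0.27. The split of higher against lower genes moved with the scaling: it was 5514 and 1497 after rescaling to equal FPKM sums, 3184 and 3494 with median-of-ratios scaling, and 3437 and 3295 with TMM on CPM (counts per library of fixed size). List medians below are given as they stand and are to be read against the all-gene median of the same pair and scale. On the scale used here that is 0.34 with the knockdown-labelled virus and -0.27 with the control virus. At the edge of the filter, Flt1 was kept with 1.04 FPKM in OGD and 0.96 in normal culture, while Gm12411 was left out with 0.91 and 1.08.

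**Figure D1:**
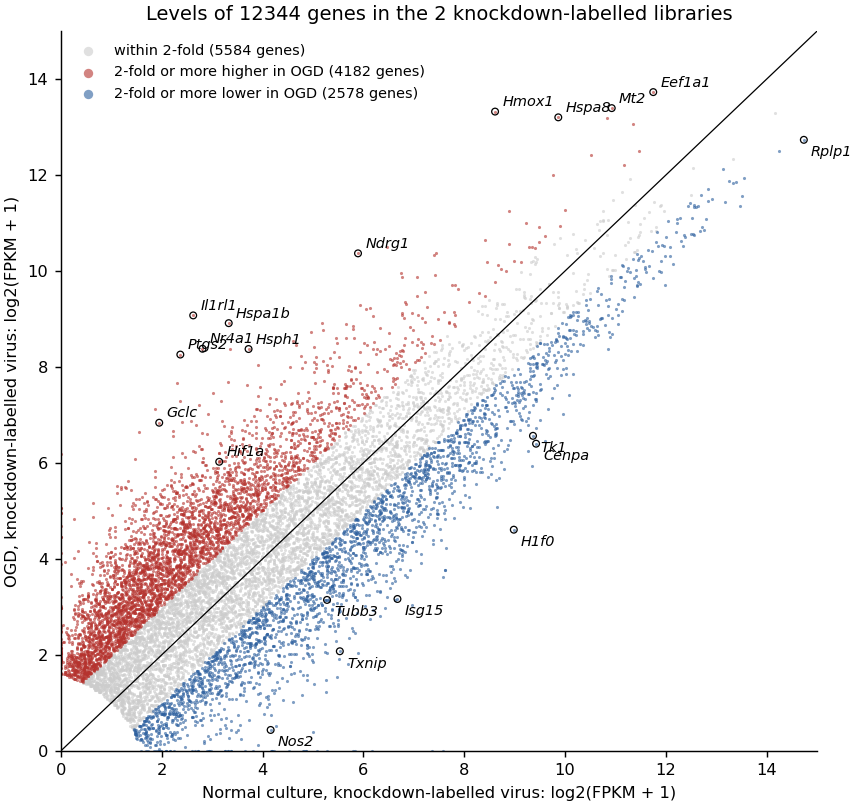
Level of each of 12344 genes in OGD (vertical axis) against normal culture (horizontal axis) with the knockdown-labelled virus, as log2(FPKM + 1), 1 point a gene and 1 library an axis. Red points are the 4182 genes at least 2-fold higher in OGD, blue points the 2578 at least 2-fold lower, and circles mark named genes such as Hmox1 and Il1rl1 far above the diagonal and H1f0 and Txnip far below it.

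The ratio depended on the length and base composition of the transcript. In the shortest quintile of genes, from 136 to 1016 nt, the median log2 ratio was -0.84, with 12.6% of genes higher and 44.6% lower. In the longest quintile, from 3390 nt, it was 1.28, with 60.2% higher and 3.97% lower. By GC content the median went from 1.31 in the quintile of genes poorest in GC to -0.87 in the richest. The Spearman correlation of the ratio across genes, which share their libraries, was 0.47 with length and -0.49 with GC. In the control pair it was -0.05 with length and -0.26 with GC. With the control virus the same medians were -0.03 in the shortest and -0.21 in the longest quintile, and 0.14 and -0.73 in the quintiles poorest and richest in GC. The mean transcript length weighted by counts was 2153 nt in OGD and 1545 nt in normal culture with the knockdown-labelled virus, against 1815 and 1835 nt with the control virus. Most lists are accordingly also given with the smooth length and GC trend over all genes removed, which leaves the all-gene median at 0.34. The part of length and GC in any single result was not tested.

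**Figure D2:**
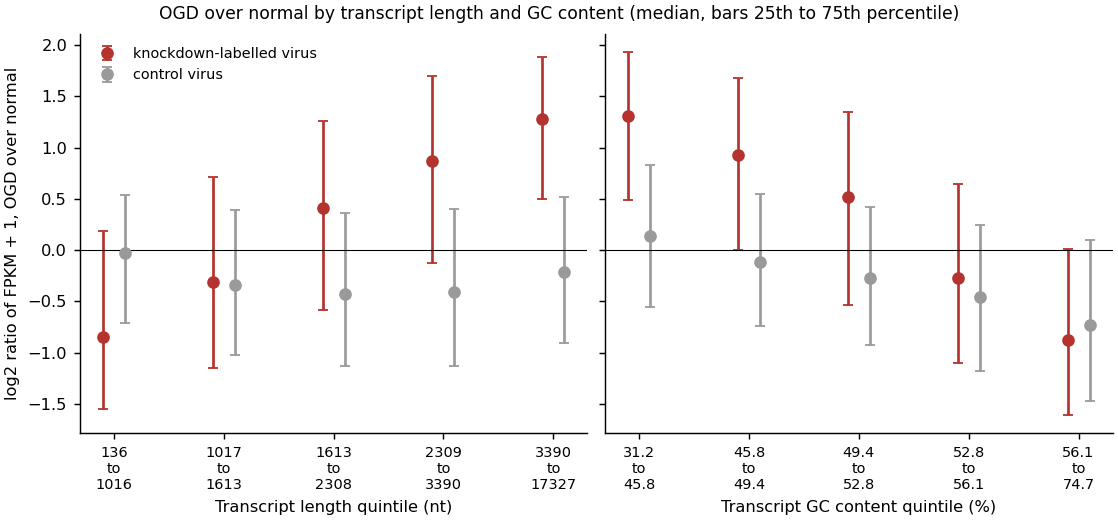
Median log2 ratio of FPKM + 1, OGD over normal culture, in 5 equal groups of genes by transcript length (left) and GC content (right); red is the knockdown-labelled virus and grey the control virus, and bars span the 25th to 75th percentile of genes. The red medians climb from -0.84 to 1.28 with length and drop from 1.31 to -0.87 with GC content. The grey medians stay between -0.43 and -0.03 by length and drop from 0.14 to -0.73 with GC content.

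The highest ratio belonged to Il1rl1 (chromosome 1, 40429570 to 40465415 in GRCm38), which encodes ST2, the receptor of the alarmin interleukin 33. It measured 539 FPKM in OGD against 5.16 in normal culture and was 104-fold higher [93.6 to 117]. In the control pair it measured 196 FPKM in OGD against 15.02 in normal culture, so both OGD libraries stood above both normal ones. Ptgs2, the inducible cyclooxygenase gene (chromosome 1, 150100031 to 150108227), was at 305 FPKM in OGD against 4.16 in normal culture and 73.5-fold higher [66.7 to 81.2], and at 54.6 FPKM in OGD against 22.7 in normal culture with the control virus. Nr4a1, introduced above with its promoter, was at 332 FPKM in OGD against 6.0 in normal culture. Its relative Nr4a2 was at 34.7 FPKM in OGD against 0.55 in normal culture. Grem1, which encodes the BMP antagonist gremlin 1, was at 139 FPKM in OGD against 2.65 in normal culture, 52.5-fold higher [46.3 to 59.9]. The sodium-phosphate cotransporter gene Slc20a1 was at 332 FPKM in OGD against 9.2 in normal culture, 36.1-fold higher [33.1 to 39.4]. Cpeb4, a regulator of mRNA polyadenylation and translation, went to 27.5 FPKM in OGD against 0.19 in normal culture on counts of 2748 in OGD and 22 in normal culture, 143-fold higher [94.1 to 228]. All of these genes were also more than 2-fold higher in OGD with the control virus.

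Further genes among the 20 highest were Zfand2a, which encodes an arsenite-inducible partner of the proteasome, at 156 FPKM in OGD against 4.15 in normal culture, and the keratin gene Krt80, at 99.2 FPKM in OGD against 1.94 in normal culture. Washc2, a subunit gene of the WASH complex of endosomes, was at 174 FPKM in OGD against 7.09 in normal culture. Smcr8, which encodes a partner of the C9ORF72 protein in autophagy, was at 45.0 FPKM in OGD against 1.16 in normal culture. The RNA helicase gene Ddx3x was at 147 FPKM in OGD against 5.7 in normal culture, 25.8-fold higher [23.2 to 28.8], and with the control virus 17.3 FPKM in OGD against 10.97 in normal culture. It was the exception among the 20: 19 of 20 were also at least 2-fold higher in OGD with the control virus, and all 20 had a positive log2 ratio there. The ratio was larger with the knockdown-labelled virus for 19 of 20, Hmox1 being the other. Their median transcript length was 2707 nt against 1932 nt over all genes, and with the length and GC trend removed their log2 ratios ran from 2.98 to 6.15.

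The lowest ratio among genes named by the same rule was that of H1f0 (chromosome 15, 79028450 to 79030504), which encodes the linker histone H1.0 of quiescent and differentiated cells. It measured 23.4 FPKM in OGD against 506 in normal culture and was 21.6-fold lower [20.4 to 22.96], with 23.7 FPKM in OGD against 501 in normal culture under the control virus. The 2 pairs of libraries were thus nearly equal in H1f0. Nos2, the inducible nitric oxide synthase gene, was at 0.35 FPKM in OGD against 16.9 in normal culture, 47.6-fold lower [33.7 to 69.4], and at 0.45 FPKM in OGD against 49.8 in normal culture with the control virus. Cdkn2d, which encodes the CDK4 and CDK6 inhibitor p19INK4d, was at 11.4 FPKM in OGD against 191 in normal culture. Acads, a mitochondrial short-chain acyl-CoA dehydrogenase gene, was at 7.85 FPKM in OGD against 97.9 in normal culture, 12.5-fold lower [10.98 to 14.2]. Psrc1, a gene of the mitotic spindle, was at 1.62 FPKM in OGD against 31.5 in normal culture. Azin2, which encodes an antizyme inhibitor of polyamine metabolism, was at 1.78 FPKM in OGD against 37.1 in normal culture.

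Other genes among the 20 lowest were Tmem37 at 7.22 FPKM in OGD against 123 in normal culture, Ppp1r35 at 12.7 FPKM in OGD against 195 in normal culture and the calcium-binding protein gene S100a16 at 32.7 FPKM in OGD against 399 in normal culture. All 20 were at least 2-fold lower with the control virus as well, and 16 of the 20 stood further down with the knockdown-labelled virus. Their transcripts had a median length of 1272 nt and 57.9% GC, against 1932 nt and 51.0% over all genes. With the trend removed all 20 log2 ratios stayed below -1, between -4.54 and -1.21.

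Genes of metal and oxidant defence held some of the most abundant transcripts among those higher in OGD. Hmox1 (chromosome 8, 75093621 to 75100589), whose product, heme oxygenase 1, breaks down heme, measured 10261 FPKM in OGD against 391 in normal culture and was 26.3-fold higher [25.8 to 26.8], beside 10729 FPKM in OGD against 301 in normal culture with the control virus. Mt2 was at 10788 FPKM in OGD against 1947 in normal culture (5.54-fold higher [5.45 to 5.63]) and Mt1 at 9339 FPKM in OGD against 1829 in normal culture (5.11-fold higher [5.01 to 5.198]). In the control pair Mt2 measured 24459 FPKM in OGD against 624 in normal culture and Mt1 20427 FPKM in OGD against 789 in normal culture. The knockdown-labelled pair thus had lower OGD levels and higher normal levels of both metallothionein genes than the control pair. Together Hmox1, Mt1 and Mt2 took 1.78% of counts in OGD and 0.174% in normal culture with the knockdown-labelled virus, against 2.84% and 0.0811% with the control virus.

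In the list of metallothionein and zinc transport genes, 11 of 19 measured members were at least 2-fold higher and 1 at least 2-fold lower, against 33.9% higher and 20.9% lower over all genes. The list median was 1.41, with the trend removed 0.76, and with the control virus 0.09. Slc30a1, which encodes the zinc exporter ZnT1 at the cell surface, was at 19.5 FPKM in OGD against 0.46 in normal culture, 42.5-fold higher [32.4 to 56.8], and the importer gene Slc39a6 was at 45.6 FPKM in OGD against 4.26 in normal culture. The 9 measured members with a metal response element core in the window had a median of 2.07 and 6 of them were higher, whereas 3 of 8 members without it were higher, with a median of 0.69. The core was found in 10 of 18 members with a window (55.6%).

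The NRF2 and glutathione list stood near the all-gene background, with 11 of 32 members higher (34.4%), 4 lower and a median of 0.66. A few members stood far out. Gclc, the catalytic subunit gene of glutamate-cysteine ligase, which makes the first step of glutathione synthesis, was at 113 FPKM in OGD against 2.86 in normal culture, 39.6-fold higher [34.6 to 45.6]. Txnrd1, the cytosolic thioredoxin reductase gene, was at 192 FPKM in OGD against 41.4 in normal culture. Nfe2l2, which encodes NRF2 itself, was at 67.5 FPKM in OGD against 14.2 in normal culture. Blvrb, the biliverdin reductase B gene, was in contrast at 77.6 FPKM in OGD against 458 in normal culture, 5.91-fold lower [5.55 to 6.29]. Antioxidant enzymes had 1 of 21 higher and 9 lower (42.9%), with a median of -0.90, or -0.14 with the trend removed and -0.63 with the control virus. Gpx4, the glutathione peroxidase that guards membrane lipids from peroxidation, was at 840.1 FPKM in OGD against 4026 in normal culture, 4.79-fold lower [4.695 to 4.89], with a log2 ratio of -2.26 that was -0.14 with the trend removed. Gpx1 was at 638 FPKM in OGD against 2126 in normal culture, and its log2 ratio of -1.73 turned to 0.08 with the trend removed. Prdx5, a peroxiredoxin gene, was at 226 FPKM in OGD against 969 in normal culture, and its log2 ratio of -2.10 was -0.44 with the trend removed. Glrx, the glutaredoxin gene, was at 25.7 FPKM in OGD against 79.6 in normal culture, with a log2 ratio of -1.56 after trend removal. Short antioxidant transcripts thus lost most of their ratio when the trend was taken out, and Glrx kept it.

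Cytosolic heat shock genes stood high. In this list 21 of 29 measured members were at least 2-fold higher and 0 at least 2-fold lower, and the list median of 1.77 was 1.59 with the trend removed and 1.30 with the control virus. Against the all-gene median of each pair, the list stood 1.43 above with the knockdown-labelled virus and 1.57 above with the control virus. The summed level of the list was 21938 FPKM in OGD against 4879.6 in normal culture and 19672 FPKM in OGD against 8497 in normal culture with the control virus. Hspa1b measured 481 FPKM in OGD against 9.04 in normal culture (53.3-fold higher [48.96 to 58.1]) and its near copy Hspa1a 202 FPKM in OGD against 3.91 in normal culture (51.8-fold higher [45.7 to 58.9]), and the split between these 2 genes is uncertain. The control pair had 159.5 FPKM in OGD against 12.9 in normal culture of Hspa1b and 62.8 FPKM in OGD against 5.64 in normal culture of Hspa1a. Hsph1, the HSP110 nucleotide exchange factor of HSP70, was at 331 FPKM in OGD against 12.2 in normal culture. Hsp90aa1, the inducible HSP90 gene, was at 1457 FPKM in OGD against 88.1 in normal culture, 16.5-fold higher [15.9 to 17.2]. Hspa8, the constitutive HSP70 gene, was the most abundant, with 9443 FPKM in OGD against 933 in normal culture.

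Of 24 heat shock genes with a promoter window, 14 (58.3%) held the heat shock element core, against 17.0% of all genes. The 13 measured members that held it had a median log2 ratio of 2.88 and 9 were higher, and the 10 without it a median of 1.5 with 8 higher. The ring-shaped TRiC chaperonin, which folds actin and tubulin, had 6 of 8 subunit genes higher and 0 lower, with a median of 1.45 (1.27 with the trend removed, 0.42 with the control virus). Cct8 led with 332 FPKM in OGD against 75.7 in normal culture, followed by Cct4 with 265 FPKM in OGD against 66.8 in normal culture. Cct5 was at 792 FPKM in OGD against 235 in normal culture and Tcp1 at 351 FPKM in OGD against 111 in normal culture, also both higher. Cct2 and Cct7 lay within 2-fold, at 323 FPKM in OGD against 210.3 in normal culture (Cct2) and 633 FPKM in OGD against 440.4 in normal culture (Cct7).

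**Figure D3:**
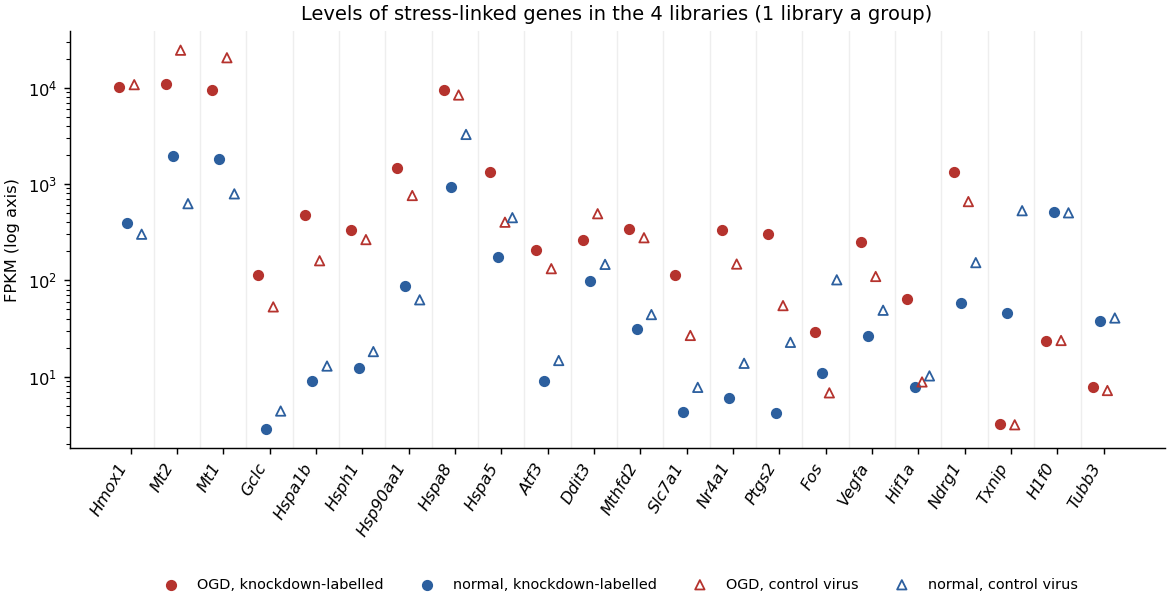
FPKM (log axis) of 22 stress-linked genes in the 4 libraries, with OGD in red and normal culture in blue, circles for the knockdown-labelled virus and triangles for the control virus, 1 library a symbol. Circles of Hmox1, Hspa1b, Nr4a1 and Ndrg1 lie more than 20-fold apart, those of Hif1a 8.20-fold apart while its triangles lie close together, and Txnip, H1f0 and Tubb3 have the red symbols below the blue ones under both viruses.

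Among the subunits and hydroxylases that sense oxygen, Hif1a (chromosome 12, 73901375 to 73947530), which encodes the oxygen-regulated subunit HIF-1α, measured 64.1 FPKM in OGD against 7.81 in normal culture and was 8.201-fold higher [7.57 to 8.9]. With the control virus it was at 8.8 FPKM in OGD against 10.2 in normal culture, so the high Hif1a level was found in 1 of 2 OGD libraries. Its log2 ratio of 2.88 was 1.46 with the trend removed. Arnt, which encodes the partner subunit HIF-1β, was at 20.8 FPKM in OGD against 6.52 in normal culture with the knockdown-labelled virus and at 7.1 FPKM in OGD against 17.7 in normal culture with the control virus. Of the prolyl hydroxylase genes that mark HIF-α for decay, Egln3 was at 45.2 FPKM in OGD against 21.5 in normal culture. Egln1 was at 27.3 FPKM in OGD against 48.7 in normal culture and Egln2 at 38.8 FPKM in OGD against 67.4 in normal culture. Egln3 was thus higher in OGD and the other two hydroxylase genes were lower by less than 2-fold. Vhl, the ubiquitin ligase gene that reads this mark, was at 26.6 FPKM in OGD against 19.3 in normal culture. Hif1an, the asparaginyl hydroxylase gene, was at 7.29 FPKM in OGD against 3.28 in normal culture. Over the list, 3 of 8 measured members were at least 2-fold higher and 0 at least 2-fold lower, with a median of 0.82 that was 0.25 with the trend removed and -0.57 with the control virus.

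The 34 measured HIF target genes stood at the background as a group in this pair. Of them 13 (38.2%) were higher and 6 (17.6%) lower, close to the 33.9% and 20.9% of all genes, and the median of 0.33 was near the all-gene 0.34. With the control virus 5 of 34 were higher and 13 lower, and the median of -0.83 was below the all-gene -0.27. In the knockdown-labelled pair the 13 higher members had a median log2 ratio of 2.56 and the 6 lower ones of -1.64. Individual targets stood well above. Ndrg1, a gene induced by hypoxia and differentiation, was at 1322 FPKM in OGD against 58.4 in normal culture, 22.6-fold higher [21.7 to 23.5], and at 656 FPKM in OGD against 152 in normal culture with the control virus. Vegfa, which encodes a growth factor of blood vessels, was at 250.4 FPKM in OGD against 26.5 in normal culture, 9.46-fold higher [8.85 to 10.1]. The collagen lysyl hydroxylase gene Plod2 was at 72.9 FPKM in OGD against 7.79 in normal culture. The histone demethylase gene Kdm3a was at 20.1 FPKM in OGD against 2.21 in normal culture. Stc2, a secreted glycoprotein gene also counted among ATF4 targets, was at 32.9 FPKM in OGD against 2.73 in normal culture. Ddit4, which encodes the mTORC1 inhibitor REDD1, was at 59.4 FPKM in OGD against 102 in normal culture, lower in OGD by less than 2-fold. The hypoxia response core ACGTG or GCGTG, which overlaps the E-box CACGTG, was found in 26 of 27 HIF target windows (96.3%) and in 46.7% of all genes. Its share in other lists varied, with 82.8% of integrated stress response, 69.5% of cytosolic ribosomal protein and 40.9% of YAP list windows.

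Glycolysis and pentose phosphate genes were lower more often than higher: 8 of 23 were lower (34.8%) and 1 higher. The list median of -0.53 was -0.15 with the trend removed, both below the all-gene median, and -1.20 with the control virus. The member that was higher was Hk2, the inducible hexokinase gene, at 46.5 FPKM in OGD against 7.05 in normal culture. Among the lower members were the phosphofructokinase genes Pfkm, at 8.23 FPKM in OGD against 26.98 in normal culture, and Pfkl, at 50.8 FPKM in OGD against 156 in normal culture. The pyruvate dehydrogenase kinase gene Pdk2 was also lower, at 1.28 FPKM in OGD against 10.7 in normal culture. Pgls, the gluconolactonase gene of the pentose phosphate pathway, was at 112 FPKM in OGD against 376 in normal culture, and its log2 ratio of -1.74 turned to 0.43 with the trend removed. The summed level of the list was 15270.1 FPKM in OGD against 25611 in normal culture, beside 911908 and 1305760 over all genes.

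Tricarboxylic acid cycle genes stood near the all-gene median, with 6 of 24 higher, 3 lower and a median of 0.39, and of -0.85 with the control virus. Dld, the shared E3 subunit gene of the α-keto acid dehydrogenases, was at 31.5 FPKM in OGD against 8.18 in normal culture. Idh3a, an isocitrate dehydrogenase gene, was at 41.1 FPKM in OGD against 14.5 in normal culture. Pdha1, the E1α gene of pyruvate dehydrogenase, was at 53.6 FPKM in OGD against 19.9 in normal culture. In the control pair Pdha1 went the other way, 18.3 FPKM in OGD against 49.3 in normal culture. Mpc2, which encodes a subunit of the mitochondrial pyruvate carrier, was at 44.7 FPKM in OGD against 101 in normal culture.

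Txnip (chromosome 3, 96557957 to 96561883), which encodes an arrestin-fold protein that holds back glucose uptake and thioredoxin, was at 3.21 FPKM in OGD against 45.3 in normal culture, 14.1-fold lower [11.7 to 17.2]. With the control virus it was at 3.16 FPKM in OGD against 528 in normal culture. The 2 OGD libraries held almost equal Txnip levels, so the larger fold with the control virus came with the higher level of its normal library. The other glucose-sensing and arrestin genes differed among themselves. Arrdc1 was lower, at 7.79 FPKM in OGD against 57.9 in normal culture, and so was Arrdc2, at 1.03 FPKM in OGD against 6.37 in normal culture. Arrdc3 was higher, at 3.05 FPKM in OGD against 0.63 in normal culture, and so was the Krüppel-like factor gene Klf10, at 13.4 FPKM in OGD against 4.74 in normal culture. Mlx, the partner gene of the glucose-sensing factors, was within 2-fold at 51.4 FPKM in OGD against 40.1 in normal culture.

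Genes of the integrated stress response stood high. In this list 22 of 32 measured members were at least 2-fold higher and 0 at least 2-fold lower, and the median of 1.53 was 2.10 with the trend removed, so this list stood further above the all-gene median once length and GC were taken out. In the control pair the median was 1.35. Against the all-gene median of each pair, the list stood 1.18 above with the knockdown-labelled virus and 1.62 above with the control virus. Atf3, which encodes a stress-induced bZIP factor, was at 204 FPKM in OGD against 9.0 in normal culture, 22.7-fold higher [20.2 to 25.6]. Mthfd2, a mitochondrial folate enzyme gene, was at 343 FPKM in OGD against 31.3 in normal culture. The lipoprotein receptor gene Vldlr was at 35.1 FPKM in OGD against 1.69 in normal culture. The tRNA exporter gene Xpot was at 36.9 FPKM in OGD against 3.37 in normal culture. All 3 genes were thus more than 8-fold higher in OGD. Ddit3, which encodes the pro-apoptotic factor CHOP, was at 263 FPKM in OGD against 98.9 in normal culture, 2.66-fold higher [2.49 to 2.84], and at 491 FPKM in OGD against 146 in normal culture with the control virus. The amino acid response element TGATGCAA was found in 7 of 29 windows (24.1%) against 1.03% of all genes. Its 7 carriers had a median of 1.44 with 5 higher, and the 22 others 1.58 with 15 higher.

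Amino acid transporter genes had 15 of 18 members higher (83.3%) and 0 lower, with a median of 1.59 (1.41 with the trend removed, 0.80 with the control virus). Slc7a1, the cationic amino acid transporter gene, was at 114 FPKM in OGD against 4.26 in normal culture, 26.8-fold higher [24.6 to 29.1]. Slc38a2, the gene of the adaptive neutral transporter SNAT2, was at 374 FPKM in OGD against 23.5 in normal culture. The lysosomal transporter gene Slc36a1 was at 68.3 FPKM in OGD against 3.64 in normal culture. Slc38a1 was at 49.1 FPKM in OGD against 5.66 in normal culture. Aminoacyl-tRNA synthetase genes, which charge tRNAs, had 13 of 20 higher and 0 lower with a median of 1.22, or 1.12 with the trend removed. Iars, the isoleucyl synthetase gene, was at 106 FPKM in OGD against 9.53 in normal culture in this pair and at 35.04 FPKM in OGD against 33.1 in normal culture with the control virus. Rars was at 150.3 FPKM in OGD against 26.6 in normal culture and at 159 FPKM in OGD against 33.6 in normal culture with the control virus, so single synthetase genes differed in whether both OGD libraries stood apart.

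ER chaperone and unfolded protein response genes had 17 of 30 members higher and 2 lower, with a median of 1.31, 1.02 with the trend removed and 0.13 with the control virus. Hspa5 was at 1331 FPKM in OGD against 173 in normal culture, 7.68-fold higher [7.495 to 7.88], whereas with the control virus it stood at 401 FPKM in OGD against 447 in normal culture. Its OGD level was thus high in 1 of 2 OGD libraries, as for Hif1a. Herpud1, a component gene of ER-associated degradation, was at 316 FPKM in OGD against 41.9 in normal culture and also higher with the control virus, at 238 FPKM in OGD against 87.9 in normal culture. Canx, the lectin chaperone gene calnexin, was at 175 FPKM in OGD against 25.2 in normal culture. The co-chaperone gene Dnajb9 was at 17.4 FPKM in OGD against 2.14 in normal culture. Ern1, which encodes the stress sensor IRE1α, was at 27.4 FPKM in OGD against 3.68 in normal culture. The ER stress element was present in 8 of 24 windows (33.3%), and the log2 ratios of its 8 carriers ranged from 0.36 to 2.93 with 5 higher, beside 10 of 16 higher among the others.

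Immediate early genes, which answer growth factors and depolarisation within minutes, differed widely among themselves. Of them, 20 of 34 measured members were at least 2-fold higher and 7 at least 2-fold lower, with a median of 1.14, of 1.42 with the trend removed and of -0.24 with the control virus. The 3 members of the Nr4a family all stood high: beside Nr4a1 and Nr4a2, Nr4a3 was at 15.2 FPKM in OGD against 0.2 in normal culture. Gem, a small GTPase gene, was at 117 FPKM in OGD against 4.99 in normal culture, 23.5-fold higher [20.5 to 27.1]. Fosb was at 16.5 FPKM in OGD against 0.56 in normal culture. Fos itself was at 28.8 FPKM in OGD against 10.99 in normal culture, higher in OGD, and went the other way with the control virus, at 6.78 FPKM in OGD against 101 in normal culture. The control normal library stood above the other 3 in Fos. The lowest members, picked out after their values were seen, were Id3 and Id1, which encode inhibitors of helix-loop-helix factors, and the AP-1 gene Junb. Id3 was at 60.4 FPKM in OGD against 650.3 in normal culture. Id1 was at 51.0 FPKM in OGD against 356 in normal culture. Junb was at 102 FPKM in OGD against 553 in normal culture, and all 3 were lower in OGD with the control virus too, with log2 ratios of -2.35 (Id3), -1.91 (Id1) and -3.50 (Junb). The heptamer shown for Nr4a1 was found in 4 of 26 immediate early windows (15.4%), beside 16.7% of ER chaperone and 0% of DNA replication windows.

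Phosphatases and feedback inhibitors of MAP kinases had 9 of 15 higher and 1 lower (median 1.40, 0.86 with the trend removed, -0.29 with the control virus). Dusp4, a dual-specificity phosphatase gene, was at 53.3 FPKM in OGD against 4.24 in normal culture. Dusp1, another, was at 268 FPKM in OGD against 32.4 in normal culture. Dusp6, a phosphatase gene for ERK, was at 17.1 FPKM in OGD against 4.05 in normal culture, while the control pair had 6.28 FPKM in OGD against 15.96 in normal culture, lower in OGD. Spred1 and Spry2, which encode Ras pathway inhibitors, were at 10.9 FPKM in OGD against 1.64 in normal culture (Spred1) and 15.3 FPKM in OGD against 3.4 in normal culture (Spry2).

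NF-kB and inflammatory genes were split, with 6 of 23 higher and 6 lower and a median of 0.01, below the all-gene median. Ptgs2 and the chemokine gene Ccl7, at 557 FPKM in OGD against 123 in normal culture, were higher. The inhibitor genes Nfkbie, at 2.3 FPKM in OGD against 11.01 in normal culture, and Tnip1, at 9.9 FPKM in OGD against 37.1 in normal culture, were lower. Nfkbiz, another IκB family gene, was at 13.1 FPKM in OGD against 2.84 in normal culture, and lower in OGD with the control virus at 4.9 FPKM in OGD against 15.1 in normal culture. p53 target genes stood near background, with 7 of 23 higher, 2 lower and a median of 0.48. Mdm2, which encodes the ligase that degrades p53, was at 44.7 FPKM in OGD against 3.51 in normal culture. Gadd45a was at 522 FPKM in OGD against 111 in normal culture. The kinase gene Plk2 was at 90.8 FPKM in OGD against 13.6 in normal culture. Phlda3, a repressor of AKT signalling, was at 58.5 FPKM in OGD against 179 in normal culture, a log2 ratio of -1.60 that turned to 0.08 with the trend removed.

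In the BCL2 family, the higher members held survival and death genes, and the 4 lower ones, Bad, Bak1, Bok and Bbc3, all encode death-promoting proteins. Of 13 measured members 4 were higher (30.8%) and 4 lower (30.8%), beside 33.9% higher and 20.9% lower over all genes. The list median of -0.25 was 0.54 with the trend removed, on the other side of the all-gene median. With the trend removed 2 members were at least 2-fold higher and 0 at least 2-fold lower, so none of the 4 stayed lower at that threshold. Mcl1, an anti-apoptotic gene with a short-lived product, was at 89.1 FPKM in OGD against 27.1 in normal culture. The BH3-only gene Bcl2l11 (BIM) was at 12.8 FPKM in OGD against 3.69 in normal culture. Bcl2 was at 27.3 FPKM in OGD against 10.5 in normal culture, a log2 ratio of 1.29 that turned to -0.31 with the trend removed. Bad, a BH3-only gene, was at 33.3 FPKM in OGD against 193 in normal culture, 5.797-fold lower [5.31 to 6.34]. The effector gene Bak1 was at 63.4 FPKM in OGD against 161 in normal culture. Bok at 81.9 FPKM in OGD against 210.3 in normal culture and Bbc3 (PUMA) at 4.82 FPKM in OGD against 12.2 in normal culture had log2 ratios of -1.35 and -1.19 that turned to 0.83 and 0.57 with the trend removed. Bax lay within 2-fold, at 324 FPKM in OGD against 386 in normal culture. Of the members named here, 3 thus changed direction with the handling of length and GC.

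Genes of the YAP pathway and of matricellular proteins, which respond to cell shape and tension, were higher with the knockdown-labelled virus. Of the list, 16 of 25 measured members were at least 2-fold higher and 0 at least 2-fold lower, with a median of 1.83, 1.51 with the trend removed and -0.63 with the control virus. F3, the tissue factor gene that starts coagulation, was at 191 FPKM in OGD against 14.4 in normal culture, 13.3-fold higher [12.02 to 14.7]. The matricellular gene Thbs1 was at 255 FPKM in OGD against 22.4 in normal culture, 11.4-fold higher [10.9 to 11.9], but lower in OGD with the control virus at 42.9 FPKM in OGD against 90.8 in normal culture. Ankrd1, a common YAP readout, was at 167 FPKM in OGD against 13.98 in normal culture and 189 FPKM in OGD against 74.6 in normal culture with the control virus, higher under both. Ccn4, a WNT-induced matricellular gene, was at 48.9 FPKM in OGD against 5.75 in normal culture. Crim1 was at 36.2 FPKM in OGD against 5.67 in normal culture, while the control pair had 9.23 FPKM in OGD against 17.9 in normal culture. The YAP list stood above the all-gene median in this pair and below it in the control pair, and the difference between the viruses was not tested.

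Actin cytoskeleton genes and targets of serum response factor had 16 of 28 higher and 2 lower, with a median of 1.09 that was 1.51 with the trend removed. Cald1, which encodes the actomyosin regulator caldesmon, was at 301 FPKM in OGD against 26.0 in normal culture, 11.6-fold higher [11.01 to 12.2], and at 61.3 FPKM in OGD against 95.2 in normal culture with the control virus. Vcl, the vinculin gene of focal adhesions, was at 81.7 FPKM in OGD against 9.46 in normal culture. The nonmuscle myosin gene Myh9 was at 353 FPKM in OGD against 65.9 in normal culture. The filamin gene Flna was at 542 FPKM in OGD against 108 in normal culture. The LIM protein gene Fhl2 was at 273 FPKM in OGD against 27.7 in normal culture. These 4 cytoskeletal genes thus stood at least 4-fold higher in OGD. Among integrins, 3 of 8 measured members were at least 2-fold higher and 1 at least 2-fold lower. Itgb1, the shared β1 chain gene, was at 245 FPKM in OGD against 38.6 in normal culture, and at 138 FPKM in OGD against 138 in normal culture with the control virus, where both libraries were equal. Itga3 was at 16.9 FPKM in OGD against 47.0 in normal culture, lower in OGD, and Itga5, the fibronectin receptor chain gene, was at 59.8 FPKM in OGD against 61.6 in normal culture.

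Collagens, laminins and other matrix genes had 14 of 35 higher (40.0%) and 3 lower, with a median of 0.67, 0.28 with the trend removed and -0.70 with the control virus. Nid1, the basement membrane gene nidogen 1, was at 197 FPKM in OGD against 11.99 in normal culture, 16.5-fold higher [15.6 to 17.3], while the control pair had 23.8 FPKM in OGD against 17.3 in normal culture. Vcan, the proteoglycan gene versican, was at 34.9 FPKM in OGD against 2.11 in normal culture. The laminin chain gene Lamb1 was at 161 FPKM in OGD against 18.2 in normal culture. Lox, which encodes the enzyme that crosslinks collagen, was at 126 FPKM in OGD against 19.4 in normal culture. The fibrillar collagen genes did not move together: Col3a1 was at 366 FPKM in OGD against 72.9 in normal culture, and Col1a1, given above, was lower in OGD by less than 2-fold. Col1a2 was at 25.9 FPKM in OGD against 11.9 in normal culture, a log2 ratio of 1.06 that turned to -0.17 with the trend removed.

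Matrix proteases and inhibitors had 11 of 25 higher and 4 lower, with a median of 0.89, of 0.74 with the trend removed and of -0.78 with the control virus. Plau, the urokinase gene, was at 101 FPKM in OGD against 3.69 in normal culture, 27.4-fold higher [23.6 to 31.9], and at 43.4 FPKM in OGD against 7.01 in normal culture with the control virus. The metalloprotease gene Adamts1 was at 43.4 FPKM in OGD against 3.6 in normal culture, and went the other way with the control virus at 6.13 FPKM in OGD against 24.3 in normal culture. Adam10, a sheddase gene, was at 15.5 FPKM in OGD against 2.14 in normal culture. Mmp11 was at 3.88 FPKM in OGD against 42.9 in normal culture, 11.1-fold lower [9.21 to 13.4], and similarly low in OGD with the control virus at 6.39 FPKM in OGD against 59.4 in normal culture.

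Growth factor genes included Vegfa, given above, and Pdgfc at 19.99 FPKM in OGD against 2.9 in normal culture, both higher. Their relatives Vegfb, at 12.2 FPKM in OGD against 57.6 in normal culture, and Pdgfb, at 0.88 FPKM in OGD against 16.1 in normal culture, were lower. Bdnf, the neurotrophin gene of activity-dependent plasticity, was at 13.04 FPKM in OGD against 1.79 in normal culture, 7.28-fold higher [6.16 to 8.66], and at 7.13 FPKM in OGD against 3.25 in normal culture with the control virus. Of the list, 10 of 21 measured members were at least 2-fold higher and 3 at least 2-fold lower, with a median of 0.84. Axon guidance ligands and receptors had 18 of 36 higher and 5 lower, with a median of 0.91, 0.36 with the trend removed and -0.60 with the control virus. Neo1, the netrin receptor gene neogenin, was at 42.4 FPKM in OGD against 2.99 in normal culture. The ephrin gene Efnb2 was at 37.2 FPKM in OGD against 2.69 in normal culture. The semaphorin gene Sema3c was at 149 FPKM in OGD against 16.5 in normal culture. The ephrin-A genes Efna3 and Efna4 were lower, at 1.76 FPKM in OGD against 28.4 in normal culture (Efna3) and 1.47 FPKM in OGD against 19.1 in normal culture (Efna4). With a filter at 5 FPKM in place of 1 the guidance list stood -0.23 from the all-gene median on the log2 scale, so its side of that median turned with the filter.

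Cholesterol synthesis and uptake genes had 13 of 27 higher (48.1%) and 4 lower, with a median of 0.73, 0.24 with the trend removed and -0.75 with the control virus. Cyp51, a demethylase gene of sterol synthesis, was at 238 FPKM in OGD against 31.3 in normal culture. Insig1, which encodes the ER anchor of the SREBP pathway, was at 77.8 FPKM in OGD against 13.6 in normal culture. Mvd, which encodes mevalonate decarboxylase, was in contrast at 15.8 FPKM in OGD against 108 in normal culture, 6.84-fold lower [6.27 to 7.48]. Fatty acid synthesis and activation genes had 10 of 23 higher and 2 lower with a median of 0.93, of 0.51 with the trend removed, nearer to the all-gene median, and of -0.45 with the control virus. Gpam, the first acyltransferase gene of glycerolipid synthesis, was at 22.9 FPKM in OGD against 1.11 in normal culture, 20.6-fold higher [16.7 to 25.6], and at 2.89 FPKM in OGD against 5.98 in normal culture with the control virus. Acsl3 and Elovl5, genes of fatty acid activation and elongation, were at 34.5 FPKM in OGD against 2.88 in normal culture (Acsl3) and 101 FPKM in OGD against 11.6 in normal culture (Elovl5).

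Lysosome and autophagy genes had 21 of 43 higher and 4 lower (median 0.93, 0.82 with the trend removed, -0.35 with the control virus). The proton pump genes Atp6v1h and Atp6v1a were at 118 FPKM in OGD against 11.4 in normal culture (Atp6v1h) and 63.6 FPKM in OGD against 5.95 in normal culture (Atp6v1a). The lysosomal hydrolase gene Gla was at 116 FPKM in OGD against 12.6 in normal culture. Tfeb, the master regulator gene of lysosome biogenesis, went the other way, at 3.11 FPKM in OGD against 37.98 in normal culture, 12.2-fold lower [10.04 to 15.02]. Proteasome subunit genes were divided, with 8 of 39 higher and 11 lower and a median of -0.22, or 0.26 with the trend removed. Psmd1, a large regulatory subunit gene, was at 84.9 FPKM in OGD against 14.7 in normal culture. The immunoproteasome genes Psmb8, Psmb9 and Psmb10 were lower, at 35.3 FPKM in OGD against 188 in normal culture (Psmb8), 3.06 FPKM in OGD against 23.5 in normal culture (Psmb9) and 29.4 FPKM in OGD against 122 in normal culture (Psmb10). The constitutive catalytic gene Psmb5 was lower too, at 174 FPKM in OGD against 684 in normal culture, a log2 ratio that was -0.07 with the trend removed.

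Among ubiquitin genes, the polyubiquitin gene Ubb was higher, at 4725 FPKM in OGD against 2294 in normal culture. Rps27a and Fau, which encode ubiquitin or a like protein fused to a ribosomal protein, were lower. Rps27a was at 1197 FPKM in OGD against 2783 in normal culture, with a log2 ratio of -0.67 after trend removal. Fau was at 1191 FPKM in OGD against 3848 in normal culture, and its log2 ratio of -1.69 turned to 0.45 with the trend removed. Nedd8, which encodes the modifier of cullin ligases, was at 627 FPKM in OGD against 1605 in normal culture, with a log2 ratio of -1.36, or -0.31 with the trend removed.

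Among lists with 3 or more members, the 3 lowest medians belonged to lists of short transcripts. Cytosolic ribosomal protein genes had 49 of 80 lower (61.2%) and 5 higher, with a median of -1.19 at a median length of 712 nt. With the trend removed the median was 0.12, with 9 higher and 6 lower, and with the control virus it was 0.31. The 71 members in the shortest quintile of genes had a median of -1.18, and the 9 longer ones stood further down, at -1.56 with 5 lower. Their share of all counts was 7.56% in OGD and 16.6% in normal culture with the knockdown-labelled virus, against 13.1% and 10.8% with the control virus. The normal library of the knockdown-labelled pair was thus the highest and its OGD library the lowest of the 4. Rplp1, a gene of the ribosomal stalk, was at 6823 FPKM in OGD against 27368 in normal culture. Rpl38 was at 2617 FPKM in OGD against 11400 in normal culture. Both were thus lower in OGD. Rpl36 was at 3043 FPKM in OGD against 11656 in normal culture, a log2 ratio of -1.94 that turned to 0.34 with the trend removed. These genes have many near-identical pseudogenes, so their counts are uncertain to the extent that reads were shared.

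Nuclear-encoded respiratory chain and ATP synthase genes had 51 of 78 lower (65.4%) and 2 higher, with a median of -1.38. With the trend removed it was -0.24, still below the all-gene 0.34, and with the control virus -0.09. Their share of counts was 1.35% in OGD and 3.10% in normal culture, and 1.83% and 2.06% with the control virus. The complex I subunit genes Ndufc2, Ndufb4 and Ndufa13 were at 164 FPKM in OGD against 852 in normal culture (Ndufc2), 56.5 FPKM in OGD against 293 in normal culture (Ndufb4) and 117 FPKM in OGD against 599 in normal culture (Ndufa13). With the trend removed Ndufb4 and Ndufc2 kept log2 ratios of -1.64 and -1.63, while Ndufa13 was at -0.44. Of the 57 members in the shortest quintile of all genes 43 were lower, with a median of -1.62, and of the 21 longer members 8 were lower, with a median of -0.83.

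The mitochondrial genome encodes 13 respiratory chain and ATP synthase proteins. In this list 3 of 13 measured members were at least 2-fold higher and 1 at least 2-fold lower, with a median of 0.55, of 0.90 with the trend removed and of 0.64 with the control virus. The ATP synthase genes mt-Atp8 and mt-Atp6 were at 1600.2 FPKM in OGD against 342 in normal culture (mt-Atp8) and 1451 FPKM in OGD against 653 in normal culture (mt-Atp6), and the cytochrome b gene mt-Cytb at 1189 FPKM in OGD against 510.4 in normal culture. The complex I gene mt-Nd3 was lower, at 800.1 FPKM in OGD against 1615 in normal culture. Of the cytochrome oxidase genes, mt-Co1 lay within 2-fold at 1742 FPKM in OGD against 1144 in normal culture and so did mt-Co3 at 845 FPKM in OGD against 824 in normal culture. In the control pair mt-Co1 was at 397 FPKM in OGD against 1274 in normal culture, lower in OGD.

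Mitochondrial ribosomal protein genes had 32 of 77 lower and 4 higher, with a median of -0.80 that was 0.08 with the trend removed and 0.07 with the control virus. Mrpl55 and Mrpl53 were at 31.2 FPKM in OGD against 196 in normal culture (Mrpl55) and 23.2 FPKM in OGD against 118 in normal culture (Mrpl53), and Mrpl57 at 11.1 FPKM in OGD against 72.4 in normal culture, the last with a log2 ratio of -3.14 after trend removal. Mrpl14 was at 229.7 FPKM in OGD against 1041 in normal culture, a log2 ratio of -2.18 that turned to 0.02 with the trend removed. In this list the 40 members in the shortest quintile had a median of -1.20 and the 37 longer ones -0.41.

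Replication-dependent and linker histone genes had 36 of 51 lower (70.6%) and 0 higher, with a median of -1.44, 0.15 with the trend removed and -0.32 with the control virus. Hist1h2bj was at 2.78 FPKM in OGD against 44.8 in normal culture. Hist1h4i was at 20.1 FPKM in OGD against 167 in normal culture. Hist1h4b was at 1.97 FPKM in OGD against 28.5 in normal culture on counts of 9 in OGD and 128 in normal culture. Histone genes of a type are near-identical, so single members are uncertain, and their mRNAs mostly lack a poly(A) tail. The list took 0.00658% of counts in OGD and 0.0276% in normal culture, so its values rest on few reads. H1f0, the linker histone gene described above, is not in this list and had a log2 ratio of -4.54 with the trend removed.

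**Figure D4:**
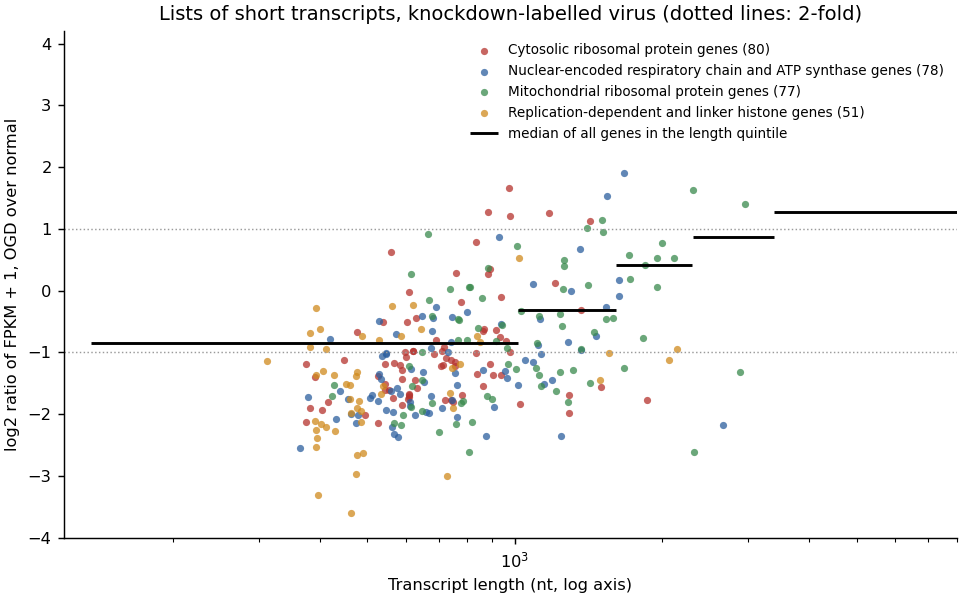
Log2 ratio of FPKM + 1, OGD over normal culture with the knockdown-labelled virus, against transcript length (nt, log axis) for each measured member of 4 lists, with black bars at the median of all genes in each length quintile. Most of the 80 ribosomal protein, 78 respiratory, 77 mitochondrial ribosomal protein and 51 histone genes are shorter than 1016 nt, where the all-gene median is -0.84. The members longer than that have medians of -1.56 (9 cytosolic ribosomal protein genes), -0.83 (21 respiratory), -0.41 (37 mitochondrial ribosomal protein) and -1.003 (5 histone genes).

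Genes that build ribosomes stood above the all-gene median in this pair and the cytosolic ribosomal protein genes below it. With the trend removed the ribosomal protein median was 0.12, nearer to the all-gene 0.34 but still below it. With the control virus it was 0.31, above the all-gene -0.27 and on the same side as the genes that build ribosomes. Ribosome biogenesis and nucleolar genes had 24 of 41 higher (58.5%) and 2 lower, with the highest median among the lists with 3 or more members, 2.03, or 1.32 with the trend removed and 1.27 with the control virus. The small-subunit processome genes Wdr75 and Wdr43 were at 50.99 FPKM in OGD against 4.2 in normal culture (Wdr75) and 48.9 FPKM in OGD against 5.86 in normal culture (Wdr43). The nucleolar helicase genes Ddx21 and Ddx18 were at 47.1 FPKM in OGD against 5.07 in normal culture (Ddx21) and 136 FPKM in OGD against 18.6 in normal culture (Ddx18). SR protein and hnRNP splicing genes had 27 of 37 higher and 1 lower (median 1.69, 1.17 with the trend removed, 0.43 with the control virus). Hnrnph1 was at 436 FPKM in OGD against 35.9 in normal culture, 12.2-fold higher [11.4 to 12.9]. The splicing genes Tra2a, Srsf11 and the kinase gene Clk4 were at 84.2 FPKM in OGD against 7.92 in normal culture (Tra2a), 97.1 FPKM in OGD against 12.3 in normal culture (Srsf11) and 47.6 FPKM in OGD against 3.72 in normal culture (Clk4).

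Translation initiation and elongation factor genes had 20 of 36 higher and 3 lower, with a median of 1.06 that was 1.07 with the trend removed. Eif4g2, which encodes an eIF4G-like factor of cap-independent initiation, was at 477 FPKM in OGD against 49.7 in normal culture. The eIF3 subunit genes Eif3c and Eif3a were at 295 FPKM in OGD against 32.5 in normal culture (Eif3c) and 80.6 FPKM in OGD against 10.2 in normal culture (Eif3a). Long noncoding RNAs of the nucleus and hosts of small nucleolar RNAs went both ways, with 6 of 19 higher, 8 lower and a median of -0.77, or 0.19 with the trend removed. Malat1, a nuclear speckle RNA, was at 75.3 FPKM in OGD against 10.7 in normal culture, while the snoRNA hosts Snhg3 and Snhg20 were at 31.8 FPKM in OGD against 160.4 in normal culture (Snhg3) and 26.5 FPKM in OGD against 135 in normal culture (Snhg20).

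DNA replication and G1/S genes had 24 of 45 members higher (53.3%) and 5 lower, with a median of 1.07, 0.94 with the trend removed and 0.22 with the control virus. Cdc6, which loads the replicative helicase, was at 72.4 FPKM in OGD against 4.29 in normal culture, and at 52.4 FPKM in OGD against 19.2 in normal culture with the control virus. The helicase gene Mcm4 was at 101 FPKM in OGD against 10.98 in normal culture. Mcm10 was at 65.2 FPKM in OGD against 8.6 in normal culture. The cyclin gene Ccne2 was at 13.5 FPKM in OGD against 0.76 in normal culture. All 3 were more than 4-fold higher in OGD. Tk1, the thymidine kinase gene, was in contrast at 93.7 FPKM in OGD against 659 in normal culture, 7.03-fold lower [6.703 to 7.38].

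Mitotic genes had 7 of 40 higher, 13 lower (32.5%) and a median of 0.07. Here trend removal moved the list down, to -0.78 with 1 higher and 15 lower, and the control virus gave -1.13. Cenpa, the centromeric histone gene, was at 83.5 FPKM in OGD against 687 in normal culture, 8.23-fold lower [7.81 to 8.69]. The kinase gene Plk1 was at 16.8 FPKM in OGD against 132 in normal culture. The anaphase genes Ube2c and Cdc20 were at 56.6 FPKM in OGD against 240.4 in normal culture (Ube2c) and 47.04 FPKM in OGD against 212 in normal culture (Cdc20). Anln, the cytokinesis gene anillin, was higher at 34.8 FPKM in OGD against 5.0 in normal culture. Mki67, the proliferation marker gene, was within 2-fold at 7.14 FPKM in OGD against 4.74 in normal culture, and its log2 ratio of 0.50 stood at -1.17 with the trend removed. The summed level of the mitotic list was 1289.8 FPKM in OGD against 3299 in normal culture and 1252 FPKM in OGD against 3335 in normal culture with the control virus.

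Interferon-stimulated and antigen presentation genes were lower, with 14 of 25 lower (56.0%), 1 higher and a median of -1.05, -0.32 with the trend removed and -1.27 with the control virus. Isg15, a ubiquitin-like modifier gene, was at 7.96 FPKM in OGD against 101 in normal culture, 12.7-fold lower [10.4 to 15.7], and at 12.5 FPKM in OGD against 38.8 in normal culture with the control virus. Tap1, the peptide transporter gene of antigen presentation, was at 2.07 FPKM in OGD against 23.6 in normal culture. The interferon regulator gene Irf7 was at 1.99 FPKM in OGD against 16.4 in normal culture. Ifi27 was at 67.7 FPKM in OGD against 383 in normal culture. All 4 were lower in both OGD libraries than in either normal library.

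Circadian clock genes had 10 of 18 higher and 1 lower, with a median of 1.41, 1.11 with the trend removed and -0.63 with the control virus. Bhlhe41, a clock repressor gene, was at 42.5 FPKM in OGD against 1.61 in normal culture, 26.5-fold higher [22.8 to 30.9], and also higher with the control virus, at 29.5 FPKM in OGD against 1.6 in normal culture. Nr1d2, which encodes REV-ERBβ, was at 11.9 FPKM in OGD against 0.54 in normal culture, and at 2.08 FPKM in OGD against 2.97 in normal culture with the control virus. Insulin and mTOR signalling genes had 17 of 30 higher, 2 lower and a median of 1.67, which was 0.55 with the trend removed at a median length of 4367 nt. Irs2, an insulin receptor adaptor gene, was at 26.8 FPKM in OGD against 1.42 in normal culture, 18.8-fold higher [15.7 to 22.7], and went below normal culture with the control virus, at 2.32 FPKM in OGD against 5.02 in normal culture. Tsc1, an mTORC1 inhibitor gene, and Pik3r1, a PI3-kinase regulatory subunit gene, were at 8.53 FPKM in OGD against 0.84 in normal culture (Tsc1) and 14.7 FPKM in OGD against 1.8 in normal culture (Pik3r1).

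Among progenitor markers, Vim, the intermediate filament gene vimentin, was at 4087 FPKM in OGD against 871 in normal culture, 4.69-fold higher [4.63 to 4.76]. The transcription factor gene Sox9 was at 11.1 FPKM in OGD against 1.25 in normal culture. Hes1 was at 18.9 FPKM in OGD against 7.12 in normal culture. Nes, the nestin gene, was at 44.2 FPKM in OGD against 22.3 in normal culture. Msi1 was lower, at 0.43 FPKM in OGD against 2.89 in normal culture. Mesenchymal receptor genes were Pdgfrb at 19.9 FPKM in OGD against 5.62 in normal culture and Pdgfra at 11.5 FPKM in OGD against 3.08 in normal culture, and Pdgfra was lower in OGD with the control virus at 3.79 FPKM in OGD against 12.9 in normal culture. Of the progenitor list, 3 of 7 measured members were at least 2-fold higher and 1 at least 2-fold lower, with 33.9% of all genes higher. Its summed level was 4175 FPKM in OGD against 914 in normal culture, nearly all of it from Vim. That of the mesenchymal list was 4015 FPKM in OGD against 7165 in normal culture and that of the neuronal list 59.4 FPKM in OGD against 112 in normal culture. The mesenchymal sum was thus lower in OGD, as was the sum over all genes (911908 FPKM in OGD against 1305760 in normal culture). Of the 10 measured mesenchymal members, 6 were higher and 1 lower, with a median log2 ratio of 1.05, or 0.55 with the trend removed. S100a4, at 2592 FPKM in OGD against 6209 in normal culture, made up most of the mesenchymal sum in both libraries. The part of cell makeup in the other results was not tested. Housekeeping genes used as references were not level either, with 8 of 17 higher and 3 lower. Eef1a1, an elongation factor gene with many near-identical pseudogenes, was at 13599 FPKM in OGD against 3448 in normal culture and Ywhaz at 195 FPKM in OGD against 49.2 in normal culture, both higher.

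Over all 53 lists, 24 had a median at least 0.5 above the all-gene median on the log2 scale and 14 at least 0.5 below it. Stress chaperones, the ATF4 branch, nucleolar and splicing genes and the YAP list were among the high lists, and the short-transcript lists, interferon genes, antioxidant enzymes and glycolysis among the low ones.

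**Figure D5:**
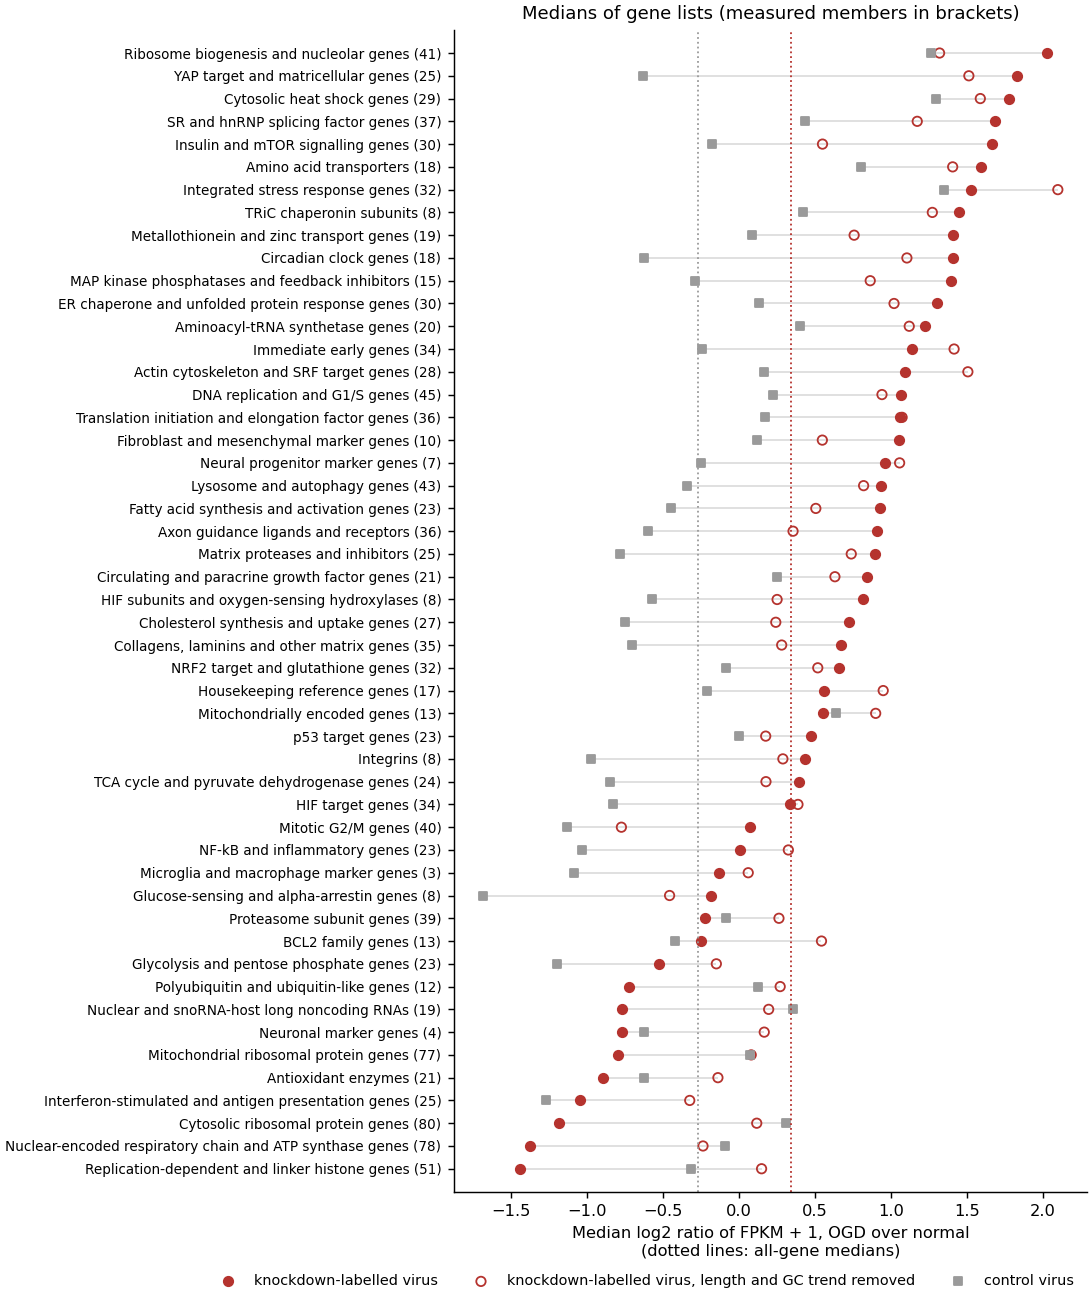
Median log2 ratio of FPKM + 1, OGD over normal culture, of each list with at least 3 measured members (number in brackets), with filled red circles for the knockdown-labelled virus, open red circles for the same after removal of the length and GC trend, and grey squares for the control virus. Dotted lines are the all-gene medians of 0.34 (red) and -0.27 (grey), and ribosome biogenesis, YAP and heat shock lists stand at the top while histone, respiratory and ribosomal protein lists stand at the bottom.

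The 2 viruses gave OGD responses that overlapped in part. Over 11696 genes measured in both pairs, 3849 were higher with the knockdown-labelled virus, 1362 with the control virus and 1028 with both, which is 26.7% of the first set and 75.5% of the second. Of all these genes, 32.9% were higher with the knockdown-labelled virus and 11.6% with the control virus. Lower genes numbered 2491 with the knockdown-labelled virus, 2899 with the control virus and 1221 with both, 49.0% and 42.1% of each set, beside 21.3% and 24.8% of all these genes. Opposite calls were fewer, with 271 genes higher under the knockdown-labelled and lower under the control virus, and 16 the other way round. Thbs1, Adamts1, Fos and Pdha1 were among the 271. The Pearson correlation of the 2 sets of log2 ratios across these genes, which are not independent replicates, was 0.55. Levels in the 2 knockdown-labelled libraries correlated at 0.81 and in the 2 control libraries at 0.88, on the scale of log2(FPKM + 1).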

How the data were processed

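Total RNA of HT22 cultures was sequenced as 1 library for each combination of virus and culture, with dUTP marking of the second strand, fragments of about 200 bp and 12 PCR cycles, per the labels' protocols. TopHat2 and the mm10 build are named in the submitters' processing notes, without versions, and which program, annotation and strand setting gave the counts is not stated there or in the labels. Reads of overlapping or antisense genes and of near-identical copies may thus be misplaced. The authors deposited, per the file headers, expected counts for each gene, which are whole numbers here, and FPKM values, which equal the count divided by the effective length and by the library's total count. The 2 comparison tables of the authors and 4 per-library columns were not used.

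From these, log2 ratios of FPKM + 1 were computed for genes averaging 1 FPKM over the pair (Python 3.11.15, numpy 2.4.6, pandas 2.3.3, scipy 1.17.1, statsmodels 0.14.6). Intervals are exact conditional binomial 95% limits from the counts. The length and GC trend was a lowess curve with a fraction of 0.3. Depth allowed 3 counts of a 1 kb transcript to be seen at 0.129 FPKM in both libraries. Symbols were found for 46488 of 47069 identifiers. Named genes were the 20 largest and 20 smallest ratios with at least 10 FPKM in a library and 100 counts over both. Small RNAs, placeholder names and pseudogenes were left out of these. Up to 5 measured members of each of 53 lists with the largest ratios in size were added. So was any measured member of lists with at most 13 measured members. Always named were Fos, Txnip, Mt1, Mt2, Ddit3, Ddit4, Hif1a, Tubb3, Vegfa, Mki67 and Hmox1. Some genes that this rule names are not reported here. A few others named for cell identity come from the marker lists. The members and lists were chosen with earlier results of these data known. Of 1502 listed genes 10 were not matched and 1326 were measured. The alternatives were other pseudocounts, filters and scalings, CPM without length, removal of the length and GC trend, and leaving out small RNAs, placeholder names and pseudogenes. The main ratio, the scalings, CPM without length and the intervals were tested on simulated counts, with the same transcript lengths in both simulated libraries. Removal of the length and GC trend and the other pseudocounts and filters were not tested in this way.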

Additional observations from a re-analysis of the deposited data

Results flagged for a closer look

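Some results went past their threshold in opposite directions under the 2 viruses, and in each case the difference between the viruses was not tested. Values are log2 ratios of FPKM + 1, OGD over normal culture, first with the knockdown-labelled and then with the control virus.

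Among lists with 3 or more measured members, those whose medians lay on opposite sides of 0 by at least 0.5 were the HIF subunits and oxygen-sensing hydroxylases (0.82 and -0.57), circadian clock genes (1.41 and -0.63) and YAP target and matricellular genes (1.83 and -0.63). Further such lists were collagens, laminins and other matrix genes (0.67 and -0.70), matrix proteases and inhibitors (0.89 and -0.78), cholesterol synthesis and uptake genes (0.73 and -0.75) and axon guidance ligands and receptors (0.91 and -0.60). All 7 lists were high with the knockdown-labelled virus, where the all-gene median was 0.34, and low with the control virus, where it was -0.27. Read against these all-gene medians, the gaps lay between 0.32 and 1.49 with the knockdown-labelled virus. Under the control virus they lay between -0.51 and -0.30. The matrix proteases and inhibitors alone of the 7 kept 0.5 on both sides (0.55 and -0.51). After removal of the length and GC trend, some gaps of the knockdown-labelled pair fell below 0. These were the HIF subunit (-0.09), collagen (-0.06) and cholesterol (-0.10) lists.

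The files held 271 genes at least 2-fold higher under the knockdown-labelled virus and at least 2-fold lower under the control virus. Those among the genes named by rule were the matricellular gene Thbs1 (3.45 and -1.06), the metalloprotease gene Adamts1 (3.27 and -1.83), the IκB family gene Nfkbiz (1.87 and -1.45) and the ERK phosphatase gene Dusp6 (1.85 and -1.22). The growth factor receptor gene Pdgfra (1.61 and -1.54), the HIF partner gene Arnt (1.53 and -1.21), the pyruvate dehydrogenase gene Pdha1 (1.39 and -1.38) and the BCL2 family gene Bcl2l13 (1.33 and -1.15) followed. The transcription factor genes Klf10 (1.33 and -1.34), Fos (1.31 and -3.71) and Prrx1 (1.16 and -1.33) were the others. With the length and GC trend removed the first value of Prrx1 turned to -0.33, and those of Nfkbiz (0.76), Pdgfra (0.72), Arnt (0.50), Pdha1 (0.76), Bcl2l13 (0.48) and Klf10 (0.74) were no longer past 2-fold. In Fos the size under the control virus rested on 101 FPKM in its normal library.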

How the results depend on the processing

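No paired analysis was possible because each group held 1 library, and for the same reason no replicate was left out.

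The median log2 ratio of all genes was moved most: it was 0.19 with a filter at 5 FPKM, 0.080 with none, 0.78 with equal FPKM sums, 0.000529 with median-of-ratios scaling and 0.025 with TMM on CPM. That of the control virus turned to 0.056 with upper-quartile scaling. Genes at least 2-fold lower numbered 1497 with equal FPKM sums and 1127 with the length and GC trend removed. Lists at least 0.5 below the all-gene median numbered 8 without a filter and 6 with the trend removed.

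Of the 38 lists at least 0.5 from the all-gene median, the BCL2 list turned to 0.20 relative to it with the trend removed. The axon guidance list turned to -0.23 with a filter at 5 FPKM. Lists nearer to that median also changed side with the trend removed. They were HIF subunits (0.47 to -0.09), cholesterol (0.38 to -0.10), collagens (0.32 to -0.06) and p53 targets (0.13 to -0.17). Integrins (0.09 to -0.06), tricarboxylic acid cycle genes (0.05 to -0.17) and HIF targets (-0.01 to 0.04) did so too. Among named genes past 2-fold, trend removal turned the log2 ratios of Bcl2 (-0.31), Prrx1 (-0.33), Col1a2 (-0.17), Bbc3 (0.57), Bok (0.83), Phlda3 (0.0752), Fau (0.45), Gpx1 (0.0752), Pgls (0.43), Rpl36 (0.34) and Mrpl14 (0.0228). Mki67, which lay within 2-fold, changed sign too, as given above. It left 20 of 38 lists past 0.5 on their side and 200 of 262 named genes past 2-fold, whereas the other settings left 29 to 38 lists and 245 to 262 genes. The cause of these shifts was not tested. With 1 library a group, depth bounds counting error only, and the spread between cultures is unknown.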
